A study of Mus musculus with 9 samples.

Results

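Genes of the endoplasmic reticulum stress response were followed in mouse liver RNA: Hspa5, Hsp90b1, Calr, Pdia4, Hyou1, Sdf2l1, Creld2, Dnajb9, Herpud1 and Xbp1. They were taken by symbol from a table of 21703 rows, and 10 of 10 were found and passed the filter on low counts. The study put a MYC family gene under doxycycline control and compared livers before and after induction.

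The endoplasmic reticulum folds secreted and membrane proteins, and hepatocytes, which secrete most plasma proteins, are rich in it. When unfolded proteins accumulate, the membrane sensors IRE1, ATF6 and PERK are activated. IRE1 splices the Xbp1 mRNA so that it encodes an active transcription factor, ATF6 is cut to release another, and both raise the genes of chaperones and of the machinery that removes misfolded proteins. PERK acts through translation and the factor ATF4. Splicing of Xbp1 and cleavage of ATF6 cannot be seen in counts per gene, so the values below are transcript levels.

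Liver was taken from C57BL/6J mice aged 4 weeks, in 3 groups of 3, and every animal carried R26-M2-rtTA, a doxycycline-dependent activator placed at the broadly active Rosa26 locus. The no dox livers carried Col-TetOP-Mycl-ires-mCherry and were left untreated. In the Mycl group this genotype was induced by injection into the peritoneum (doxycycline, 2.0 mg/ml, 0.2 ml), and liver was collected after 48 h. The c-Myc group carried Col-TetOP-c-Myc-ires-mCherry and was induced likewise. Livers given doxycycline in the absence of a transgene, and untreated livers of the c-Myc line, were not analysed here, so doxycycline and, for c-Myc, the line cannot be told apart from the transgene. The labels do not say whether the replicates of a group were separate animals, and p-values measure the spread between these samples.

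Total counts ran from 11013412 to 20079232 per library. The IRES-mCherry reporter was between 0.316 and 1.1 CPM (counts per 1e+06 counts, with TMM-scaled library sizes) in the no dox livers. It stood at 52.3, 146 and 270 CPM in Mycl replicates 1, 2 and 3 and at 221, 282 and 76.4 CPM in c-Myc replicates 1, 2 and 3. The Mycl gene was at 10.8 to 11.6 CPM in no dox, 49.1 to 233.5 CPM in Mycl and 5.70 to 7.05 CPM in c-Myc livers, and Myc, which encodes c-Myc, at 4.05 to 12.7, 4.61 to 14.2 and 81.8 to 269.8 CPM, so each library matched its label. Summed over 12 hepatocyte markers, the level was 175600 to 197300 CPM in no dox, 115500 to 180300 in Mycl and 94590 to 140800 in c-Myc livers. Mycl replicate 1 stood apart from the other 8 libraries: its genes with exons under 1500 nt had a median of 0.90 above the no dox mean on the log2 scale, and those over 5000 nt a median of -0.18. In the other libraries the shortest class lay between -0.08 and 0.10.

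The promoters are shown because the genes were grouped by the factors that bind them. RefSeq promoter windows (build GRCm38.p6) were found for 9 of the 10 genes, and the 250 bases upstream of each start were searched on both strands; Hyou1 had no entry. The endoplasmic reticulum stress element ERSE, the letters CCAAT and CCACG with any 9 bases between them, was present in 4 of the 9 windows and in 0.113% of all 32851 windows. The element ERSE-II, the letters ATTGG and CCACG with any 1 base between them, was present in Herpud1 and in 0.0304% of all windows. In the stretches below, written 5′ to 3′ on the strand of the gene, capitals mark the fixed letters of an element. The reverse orientation reads CGTGG, 9 bases, ATTGG.
Hspa5, chr2:34772015-34772053, plus strand: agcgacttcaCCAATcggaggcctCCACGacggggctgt
Hsp90b1, chr10:86705628-86705666, minus strand: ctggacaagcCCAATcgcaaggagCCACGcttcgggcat
Hsp90b1, chr10:86705523-86705561, minus strand: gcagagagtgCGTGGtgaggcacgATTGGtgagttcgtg
Calr, chr8:84847065-84847103, minus strand: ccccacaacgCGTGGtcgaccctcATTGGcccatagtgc

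The whole 250 bases are given for Creld2 and Herpud1, the genes whose levels passed the test in c-Myc livers in opposite directions. Creld2 has an ERSE in reverse orientation at positions -126 to -108 from its start, and Herpud1 has ERSE-II at positions -52 to -42. The Herpud1 window ends in the letters CCAAT, 9 bases and CCAC, printed small. The bases past the start were not searched, so an ERSE that crosses it would have been missed.
Creld2, chr15:88819396-88819645, plus strand: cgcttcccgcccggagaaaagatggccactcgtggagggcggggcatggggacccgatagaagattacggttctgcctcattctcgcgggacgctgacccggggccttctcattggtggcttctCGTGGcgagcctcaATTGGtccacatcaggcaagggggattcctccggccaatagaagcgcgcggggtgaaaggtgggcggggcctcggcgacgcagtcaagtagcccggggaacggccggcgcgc
Herpud1, chr8:94386179-94386428, plus strand: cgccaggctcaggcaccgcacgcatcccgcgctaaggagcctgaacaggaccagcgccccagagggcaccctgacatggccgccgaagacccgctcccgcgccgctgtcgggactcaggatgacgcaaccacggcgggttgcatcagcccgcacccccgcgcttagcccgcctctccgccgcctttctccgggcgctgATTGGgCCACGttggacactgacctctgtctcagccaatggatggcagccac
The XBP1 and ATF6 element TGACGTGG was in 0 of the 9 windows and in 0.563% of all windows. The MYC and MAX binding letters CACGTG were present in Calr at positions -224 to -219 and in Dnajb9 at positions -107 to -102, and in 6.02% of all windows. No matches in the 9 windows overlapped. A match is a description of the letters and was not tested for binding. The RefSeq starts can differ from the GENCODE M21 gene bounds given below. The ERSE of Hspa5 and the whole Dnajb9 window lie inside the GENCODE genes. The Pdia4 window, chr6:47813513-47813762, stops short of the GENCODE gene, so the bases next to that gene were not searched.

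In the GENCODE M21 annotation of build GRCm38, the chaperone genes are Hspa5 (ENSMUSG00000026864) at chr2:34771970-34777547 on the plus strand, Hsp90b1 (ENSMUSG00000020048) at chr10:86690209-86705509 on the minus strand, Calr (ENSMUSG00000003814) at chr8:84841850-84846934 on the minus strand, Pdia4 (ENSMUSG00000025823) at chr6:47796141-47813430 on the minus strand and Hyou1 (ENSMUSG00000032115) at chr9:44379490-44392369 on the plus strand. The cofactor genes are Sdf2l1 (ENSMUSG00000022769) at chr16:17130138-17132383 on the minus strand, Creld2 (ENSMUSG00000023272) at chr15:88819646-88826683 on the plus strand and Dnajb9 (ENSMUSG00000014905) at chr12:44205559-44210326 on the minus strand. The remaining genes are Herpud1 (ENSMUSG00000031770) at chr8:94386438-94395377 on the plus strand and Xbp1 (ENSMUSG00000020484) at chr11:5520659-5525893 on the plus strand.

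In untreated liver the genes differed widely in level per length of exon, which was taken as the union of all annotated exons. Calr, a lectin-like chaperone of glycoproteins, was the highest at 374.5 ± 11.6 CPM per kb (SD, n = 3), followed by Hsp90b1, the HSP90 paralog of the endoplasmic reticulum, at 240 ± 39.4 CPM per kb. Herpud1, Hspa5 and Pdia4 followed at 157 ± 8.96, 153 ± 12.3 and 147 ± 15.2 CPM per kb and lay within each other's spread. Xbp1 at 60.6 ± 7.27 and Hyou1 at 49.7 ± 7.54 CPM per kb were neighbours that overlapped in spread, and Sdf2l1 lay below them at 36.4 ± 5.60 CPM per kb. Creld2 and Dnajb9 were the lowest at 17.4 ± 5.06 and 15.2 ± 0.742 CPM per kb and were not separated by their spread.

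**Figure D1:**
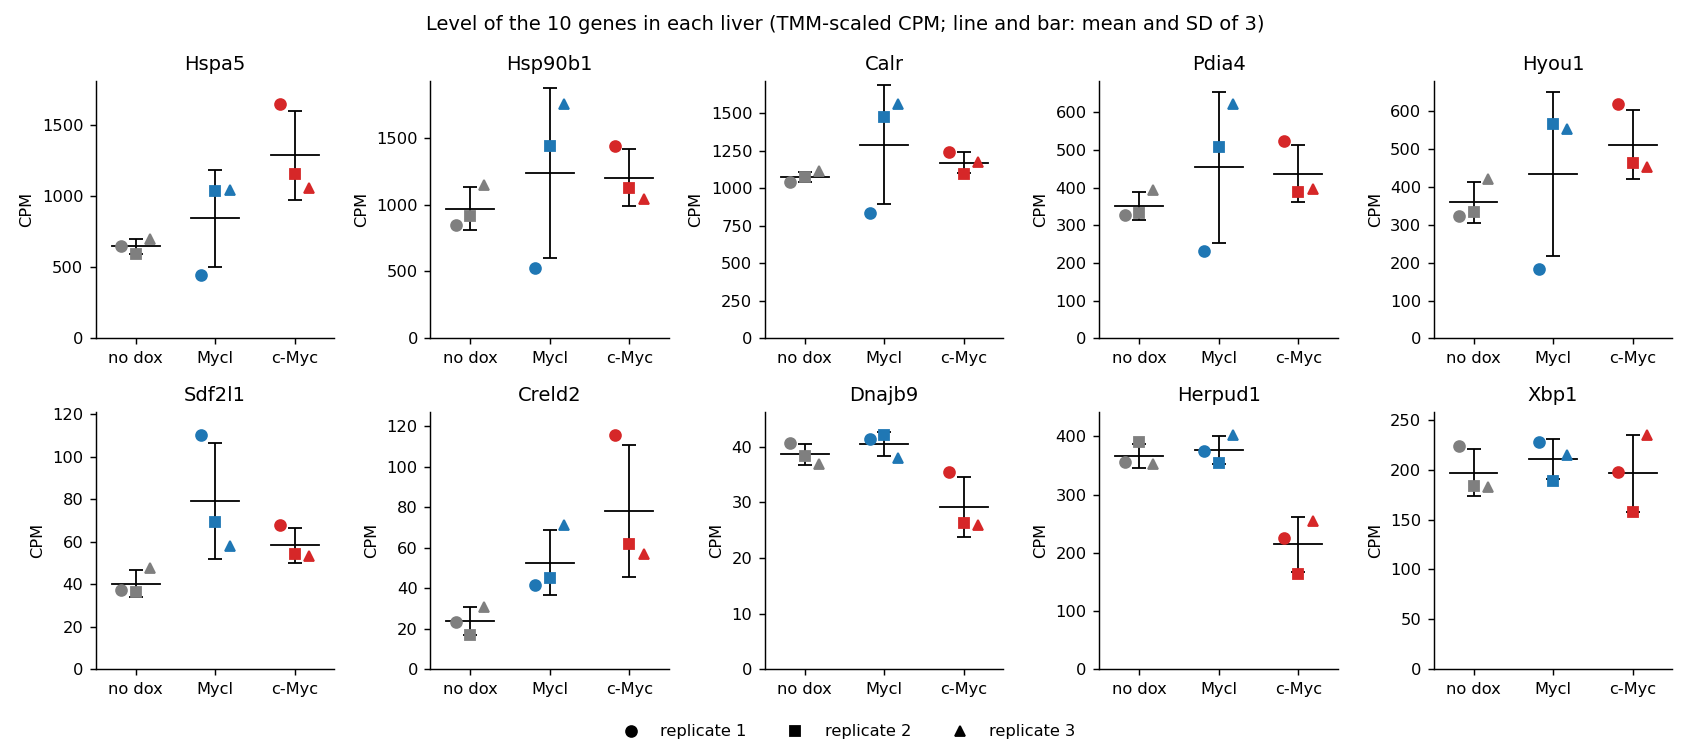
Level of each gene (CPM, linear axes from 0) in the 3 no dox (grey), 3 Mycl (blue) and 3 c-Myc (red) livers; symbols mark the replicate number, and lines with bars give the mean and SD. Mycl replicate 1 is the lowest of all 9 livers for the 5 chaperones in the upper row, and Herpud1 is lower in every c-Myc liver than in any other.

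The 5 chaperones of the lumen showed their widest spread within the Mycl group. Hspa5 encodes BiP, the HSP70 of this compartment that also holds the stress sensors inactive. Hspa5 stood at 651, 595 and 699 CPM in no dox replicates 1, 2 and 3, at 447, 1037 and 1047 CPM in the Mycl livers and at 1646, 1157 and 1059 CPM in the c-Myc livers. All c-Myc livers lay above all no dox livers, whereas the Mycl livers lay on both sides of them. The log2 fold change of Hspa5 was 0.38 (SE 0.31, edgeR adjusted p = 0.511) for Mycl against no dox and 0.99 (SE 0.32, edgeR adjusted p = 0.0512) for c-Myc against no dox. Neither passed the threshold of 0.05 over all 12651 tested genes. The c-Myc value of Hspa5 lay close to it: the adjusted p was 0.00662 by DESeq2, 0.0676 by limma-voom, 0.00429 in an edgeR fit of the 6 libraries compared, 0.00274 in edgeR without Mycl replicate 1 and 0.173 without c-Myc replicate 1.

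Hsp90b1 stood at 847, 912 and 1149 CPM in the no dox livers, at 525, 1436 and 1748 CPM in the Mycl livers and at 1440, 1121 and 1039 CPM in the c-Myc livers. The groups overlapped in both comparisons with no dox. Pdia4, a protein disulfide isomerase, stood at 328, 333 and 394 CPM in no dox, at 233, 508 and 621 CPM in Mycl and at 525, 390 and 398 CPM in c-Myc livers. Hyou1 is a relative of HSP70 that exchanges the nucleotide of BiP. Hyou1 stood at 323, 333 and 422 CPM in no dox, at 184, 566 and 552 CPM in Mycl and at 618, 464 and 454 CPM in c-Myc livers; the c-Myc livers all lay above the no dox livers. Calr moved least, from 1046, 1077 and 1113 CPM in no dox to 835, 1479 and 1560 CPM in Mycl and 1240, 1099 and 1177 CPM in c-Myc livers. The log2 fold changes of these 4 genes ran from 0.26 to 0.37 for Mycl (edgeR adjusted p from 0.516 to 0.682) and from 0.12 to 0.51 for c-Myc (edgeR adjusted p from 0.344 to 0.761). Hyou1 passed for c-Myc in the fit of 6 (edgeR adjusted p = 0.0321) and without Mycl replicate 1 (edgeR adjusted p = 0.0265).

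Mycl replicate 1 had less of all 5 chaperones than any no dox liver, and Mycl replicates 2 and 3 had more of all 5 than any no dox liver. On the log2 scale the difference from the no dox mean was -0.53 for Hspa5, -0.87 for Hsp90b1, -0.37 for Calr, -0.59 for Pdia4 and -0.95 for Hyou1 in replicate 1. These values were lower than the median of all genes of the same exon length in that library, which was 0.27 from 1500 to 3000 nt (Calr and Pdia4), 0.03 from 3000 to 5000 nt (Hspa5 and Hsp90b1) and -0.18 over 5000 nt (Hyou1). Replicate 1 also had the lowest reporter level of the 3 Mycl livers. Without replicate 1 the log2 fold changes for Mycl against no dox were 0.74 for Hspa5 (SE 0.20, edgeR adjusted p = 0.0654), 0.77 for Hsp90b1 (SE 0.20, edgeR adjusted p = 0.0625), 0.55 for Calr (SE 0.15, edgeR adjusted p = 0.0636), 0.74 for Pdia4 (SE 0.18, edgeR adjusted p = 0.0463) and 0.69 for Hyou1 (SE 0.18, edgeR adjusted p = 0.0589). Only Pdia4 of the 5 passed in that fit, in which 3.68% of all genes were called higher. With all 3 Mycl replicates and the length trend removed, the Mycl values were 0.41 for Hspa5, 0.38 for Hsp90b1, 0.27 for Calr, 0.36 for Pdia4 and 0.33 for Hyou1. None of these passed (edgeR adjusted p from 0.478 to 0.589). The part of the length trend and of the reporter level in the values of replicate 1 was not tested.

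**Figure D2:**
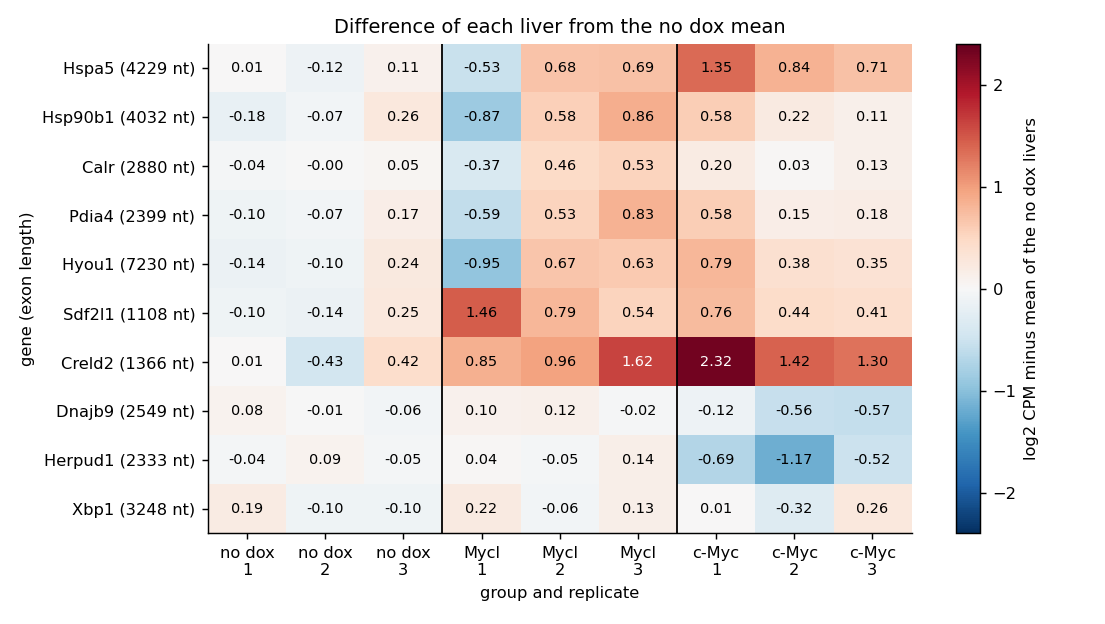
Log2 CPM of each gene in each liver minus the mean of the no dox livers, with the exon length of the gene beside its name; red is higher and blue is lower. In the first Mycl column the 5 chaperones run from -0.95 to -0.37 while Sdf2l1 is at 1.46, and the last 3 columns show Herpud1 between -1.17 and -0.52.

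The chaperone cofactors split. Creld2, a protein of the secretory pathway with EGF-like repeats that is induced by endoplasmic reticulum stress, had the largest rise of the 10 genes in c-Myc livers. It stood at 23.3, 17.1 and 30.9 CPM in the no dox livers, at 41.7, 45.1 and 71.0 CPM in the Mycl livers and at 116, 62.1 and 57.0 CPM in the c-Myc livers. Every induced liver lay above every no dox liver. Creld2 rose in c-Myc livers by 1.72 on the log2 scale, a fold change of 3.30 (SE 0.33 in log2, edgeR adjusted p = 0.00573), and it was called higher with every other scaling, filter, tool and left-out library that was run. For Mycl against no dox its log2 fold change was 1.15 (SE 0.32, edgeR adjusted p = 0.0837), which did not pass. DESeq2 gave an adjusted p = 0.00963. Creld2 has exons of 1366 nt, in the class under 1500 nt that was high in Mycl replicate 1. In that library Creld2 lay 0.848 above the no dox mean on the log2 scale, no more than the class median of 0.896. With the length trend removed the Mycl value of Creld2 was 1.004 (SE 0.383, edgeR adjusted p = 0.179). Without Mycl replicate 1 it was 1.349 (SE 0.335, edgeR adjusted p = 0.0517).

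Sdf2l1 is a partner of BiP and of its J-domain cofactors. It stood at 37.2, 36.2 and 47.4 CPM in the no dox livers, at 110, 69.3 and 58.1 CPM in the Mycl livers and at 67.8, 54.2 and 53.1 CPM in the c-Myc livers. Again no induced liver overlapped with the no dox livers. The log2 fold change was 0.97 for Mycl (SE 0.23, edgeR adjusted p = 0.0513) and 0.54 for c-Myc (SE 0.23, edgeR adjusted p = 0.126), and neither passed. The c-Myc value of Sdf2l1 passed in the fit of 6 (edgeR adjusted p = 0.0136), without Mycl replicate 1 (0.0121), with library totals (0.0218) and with the length trend removed (0.0406), and the Mycl value with RLE or upper-quartile factors, library totals, no filter, by DESeq2 and without Mycl replicate 2 or 3 (adjusted p from 0.00211 to 0.0442). The highest value was that of Mycl replicate 1, the library with high values for short transcripts, and Sdf2l1 has the shortest exons of the 10 genes at 1108 nt. Without replicate 1 the Mycl value of Sdf2l1 was 0.72 (SE 0.16, edgeR adjusted p = 0.0334), and with the length trend removed it was 0.66 (SE 0.18, edgeR adjusted p = 0.0684).

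Dnajb9, a J-domain protein that assists degradation and restrains IRE1, did not follow Creld2 and Sdf2l1. It stood at 40.7, 38.3 and 37.0 CPM in no dox, at 41.5, 42.1 and 38.0 CPM in Mycl and at 35.4, 26.2 and 26.0 CPM in c-Myc livers. The c-Myc livers were the lowest 3 of the 9, and with library totals the c-Myc value of Dnajb9 was -0.05. With TMM the log2 fold change was 0.07 for Mycl (SE 0.14, edgeR adjusted p = 0.806) and -0.40 for c-Myc (SE 0.14, edgeR adjusted p = 0.0726), and neither passed. Without c-Myc replicate 1 the c-Myc value was -0.57 and passed (edgeR adjusted p = 0.0301).

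Herpud1, a membrane protein of the complex that exports misfolded proteins for degradation, fell in c-Myc livers. Its level was 356, 390 and 352 CPM in the no dox livers, 375, 354 and 402 CPM in the Mycl livers and 226, 163 and 255 CPM in the c-Myc livers. Each c-Myc liver lay below each of the other 6, while no dox and Mycl livers overlapped. The log2 fold change was -0.77 for c-Myc against no dox (SE 0.18, edgeR adjusted p = 0.0158) and 0.04 for Mycl against no dox (SE 0.18, edgeR adjusted p = 0.91). The call for c-Myc was lost without no dox replicate 1, 2 or 3 (edgeR adjusted p = 0.0676, 0.0902 and 0.0668), without c-Myc replicate 2 (log2 fold change -0.57, edgeR adjusted p = 0.0638) and with library totals (log2 fold change -0.43, edgeR adjusted p = 0.0614). With library totals the median of all genes moved up by 0.36 in that comparison.

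Xbp1, the transcription factor, stayed near its no dox level. It stood at 224, 183 and 183 CPM in the no dox livers, at 228, 188 and 215 CPM in the Mycl livers and at 198, 157 and 235 CPM in the c-Myc livers, and all 3 groups overlapped. The log2 fold change was 0.10 for Mycl (SE 0.18, 95% interval -0.30 to 0.49, edgeR adjusted p = 0.778) and -0.00 for c-Myc (SE 0.18, 95% interval -0.40 to 0.39, edgeR adjusted p = 0.993).

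In total, 0 of the 10 genes passed for Mycl against no dox by edgeR, where 3.2% of all tested genes were called, 2.24% higher and 0.964% lower. An unadjusted p under 0.05 was reached by 2, both higher; DESeq2 called 2, both higher, where it called 5.88% of all genes higher and 2.7% lower, limma-voom called 0, and an edgeR fit of the 6 libraries called 0, where 1.91% of all genes were higher and 0.516% lower. Without Mycl replicate 1 edgeR called 2 of the 10 higher, where 3.68% of all genes were higher and 0.993% lower. For c-Myc against no dox 1 of the 10 was higher and 1 lower, where 20.7% of all genes were called, 11.8% higher and 8.88% lower. DESeq2 called 2 higher and 1 lower (14.7% and 10.1% of all genes). The edgeR fits of the 6 libraries and without Mycl replicate 1 each called 4 higher (18.8% of all genes in each) and 1 lower (14.4% in each). With 10 genes, the counts of the main test are near the background and are no result about the 10 genes as a group. The counts called higher without Mycl replicate 1, in the fit of 6 for c-Myc and by DESeq2 for Mycl are shares above the background. Those called lower against no dox in the same fits are not above it. The difference from the background was not tested. The groups did not overlap upwards for 2 of 10 genes in Mycl (13.2% of all genes) and for 4 of 10 in c-Myc livers (22.6% of all genes), and downwards for 0 of 10 (16.2%) and 2 of 10 (28.1%). The median log2 fold change of the 10 genes was 0.31 in both comparisons, against 0.01 and -0.05 over all genes. Without Mycl replicate 1 it was 0.70 for Mycl and 0.36 for c-Myc, against 0.02 and -0.01 over all genes, so the equal medians rest on that library. Both comparisons use the same no dox livers.

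**Figure D3:**
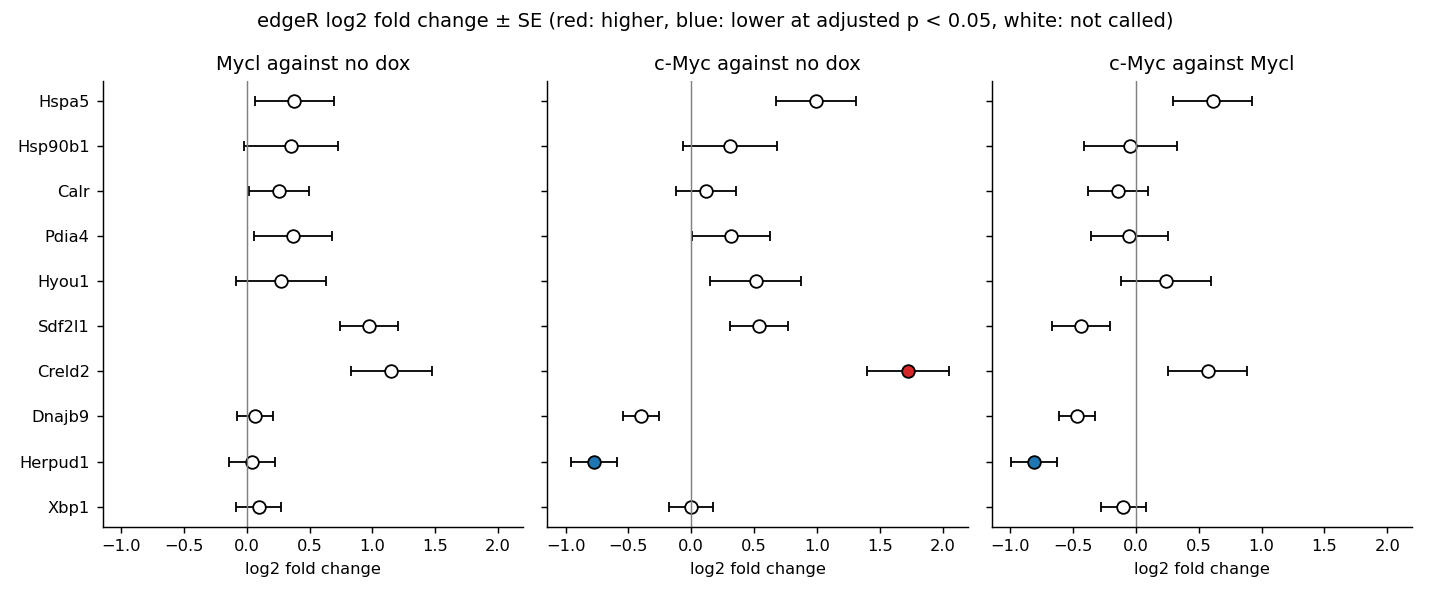
edgeR log2 fold change of each gene with its standard error in the 3 comparisons; red is called higher, blue called lower and white not called at an adjusted p under 0.05. Creld2 at 1.72 and Herpud1 at -0.77 are the filled points of c-Myc against no dox, and Herpud1 at -0.81 is that of c-Myc against Mycl.

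The c-Myc livers were then compared with the Mycl livers, a direct test of the difference between the induced groups. Herpud1 was lower in c-Myc than in Mycl livers, at -0.81 on the log2 scale (SE 0.18, edgeR adjusted p = 0.0321), and was the 1 gene of 10 that passed, where 6.77% of all genes were called, 2.63% lower and 4.14% higher. Without Mycl replicate 1 it was again the 1 gene called (3.73% of all genes lower, 4.58% higher), and DESeq2 called it and Dnajb9 (5.89% lower, 7.89% higher). The call was lost in a fit of the 6 libraries (edgeR adjusted p = 0.122), where 0.312% of all genes were lower and 0.28% higher. It was also lost without no dox replicate 1, 2 or 3, without Mycl replicate 2 or 3 and without c-Myc replicate 1 or 2 (edgeR adjusted p from 0.0523 to 0.109). For Dnajb9 the log2 difference was -0.47 (SE 0.14, edgeR adjusted p = 0.0765; DESeq2 adjusted p = 0.0391), with all c-Myc livers below all Mycl livers. The groups did not overlap upwards for 1 of the 10 genes, Hspa5 (13.7% of all genes), and downwards for 2, Herpud1 and Dnajb9 (12% of all genes).

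The remaining differences between c-Myc and Mycl livers did not pass, and their intervals were wide. The log2 difference was 0.61 for Hspa5 (95% interval -0.09 to 1.31), with every c-Myc liver above every Mycl liver, and 0.57 for Creld2 (95% interval -0.13 to 1.27). For Sdf2l1 it was -0.44 (95% interval -0.94 to 0.07). For Hsp90b1, Calr, Pdia4 and Hyou1 it lay between -0.14 and 0.24, with edgeR adjusted p from 0.7 to 0.95. Without Mycl replicate 1 the values of these 4 genes ran from -0.42 to -0.13 and that of Hspa5 was 0.30 (SE 0.20, edgeR adjusted p = 0.375).

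Other genes of the pathway were read from lists chosen with earlier results of these data known. Their counts stand against all genes, of which 2.24% were called higher and 0.964% lower for Mycl, 11.8% and 8.88% for c-Myc, and 4.14% and 2.63% for c-Myc against Mycl. Of 23 tested other endoplasmic reticulum folding factors, 2 rose, 0 fell and 21 did not pass in Mycl livers, and 4 rose, 0 fell and 19 did not pass in c-Myc livers. Manf, a secreted stress-induced survival factor, rose from 54.5, 53.4 and 55.7 CPM in no dox to 120, 94.1 and 98.9 CPM in Mycl and 134, 106 and 95.3 CPM in c-Myc livers. No induced liver came near the no dox range, and the log2 fold change was 0.93 (SE 0.16, edgeR adjusted p = 0.0181) and 1.03 (SE 0.16, edgeR adjusted p = 0.00208). Fkbp11, a prolyl isomerase of the secretory pathway, rose by 1.39 (SE 0.32, edgeR adjusted p = 0.0481) and 1.48 (SE 0.32, edgeR adjusted p = 0.0106). In c-Myc livers Dnajc10, a reductase with a J domain, rose by 0.51 (SE 0.12) and Mesd, a chaperone of LDL receptor family proteins, by 0.55 (SE 0.17). Both calls were lost without no dox replicate 1, 2 or 3 or c-Myc replicate 1, and that of Mesd also without c-Myc replicate 2, whereas Manf and Fkbp11 were called for c-Myc in every fit that was run. For Mycl, the call of Fkbp11 was also lost by limma-voom, in the fit of 6 and without c-Myc replicate 1. Without Mycl replicate 1, 6 genes of this list rose in Mycl livers, where 3.68% of all genes did, and without no dox replicate 1, 2 or 3 none did. The median log2 fold change of the list was 0.26 for Mycl and 0.16 for c-Myc.

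Of 21 degradation factors, 0 passed in Mycl livers in the main edgeR test and 2 were higher by DESeq2, where 5.88% of all genes were higher. In c-Myc livers 1 rose and 20 did not pass. The gene that rose was Derl3, a channel protein of the degradation complex. It stood at 3.12, 3.23 and 1.59 CPM in no dox, at 3.98, 14.9 and 27.1 CPM in Mycl and at 39.6, 19.8 and 16.8 CPM in c-Myc livers. Mycl replicate 1 again lay next to the no dox livers, and the log2 fold change for c-Myc was 3.24 (SE 0.62, edgeR adjusted p = 0.00617). For Mycl, Derl3 passed by edgeR with upper-quartile factors, library totals or no filter. It also passed without Mycl replicate 1, at 3.01 (edgeR adjusted p = 0.0105). The median of the list was -0.10 for Mycl and -0.13 for c-Myc.

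Of 12 sensors and factors of the unfolded protein response, 0 rose, 1 fell and 11 did not pass in Mycl livers, and 1 rose, 1 fell and 10 did not pass in c-Myc livers. Creb3l3, a hepatocyte factor that is activated by cleavage like ATF6, fell from 325.3, 288.5 and 282.5 CPM in no dox to 177.3, 178.5 and 175.5 CPM in Mycl and 188.5, 148.3 and 226.5 CPM in c-Myc livers. Both induced groups lay below the no dox livers, by -0.75 (SE 0.17, edgeR adjusted p = 0.0441) and -0.67 (SE 0.17, edgeR adjusted p = 0.0215) on the log2 scale. Both calls of Creb3l3 were lost with library totals, without no dox replicate 1, 2 or 3 and without c-Myc replicate 1. The c-Myc call was also lost without c-Myc replicate 2, and the Mycl call without Mycl replicate 1, 2 or 3, with RLE or upper-quartile factors, by limma-voom and with the replicate block. Creb3l1, a related factor of matrix-producing cells, rose in c-Myc livers from 1.47 ± 0.345 to 3.93 ± 1.26 CPM (SD, n = 3; edgeR adjusted p = 0.0262), a call lost without no dox replicate 2 or 3 or c-Myc replicate 2. Between c-Myc and Mycl livers 1 gene of this list differed, the protease gene Mbtps2, which was higher in c-Myc livers by 0.80 (SE 0.19, edgeR adjusted p = 0.0372). That call was lost with the replicate block, in the fit of the 6 libraries, without no dox replicate 1, 2 or 3, without Mycl replicate 2 or 3 and without c-Myc replicate 1 or 2. The sensors themselves, Ern1 (which encodes IRE1), Eif2ak3 (PERK) and Atf6, did not pass in any comparison.

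**Figure D4:**
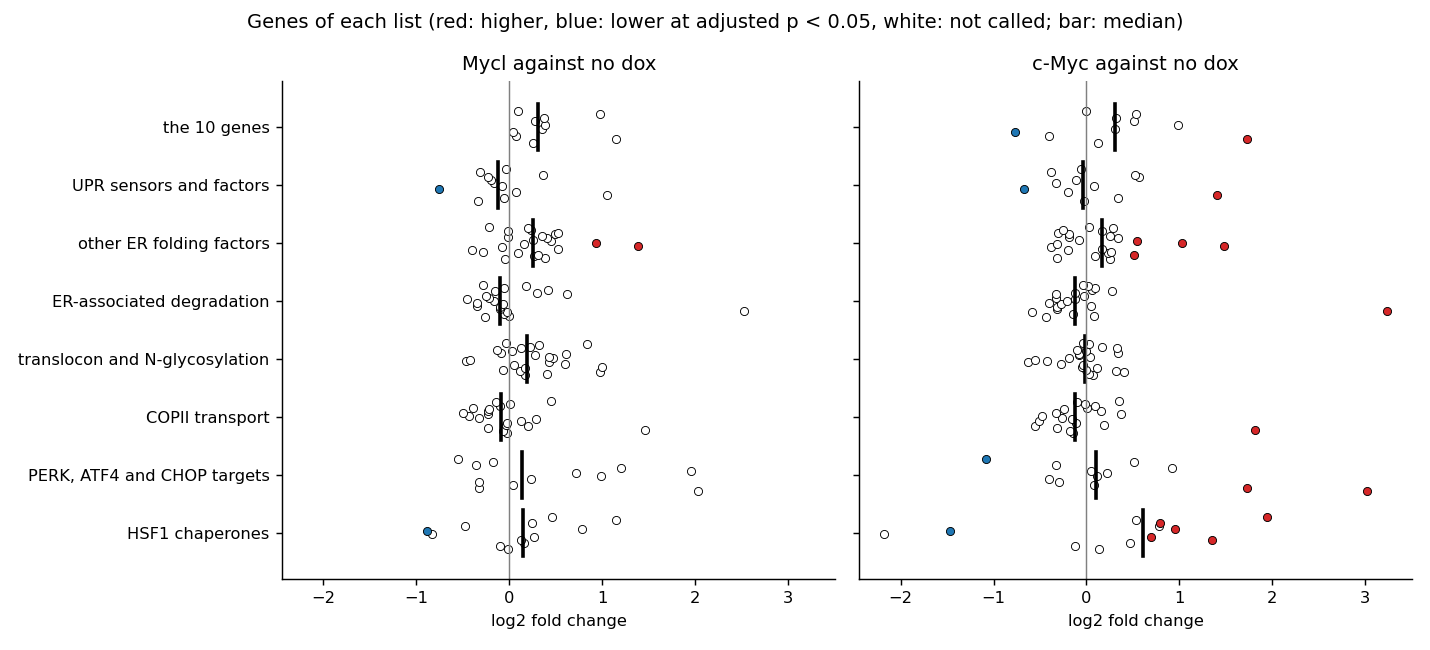
Log2 fold change of each tested gene in 8 lists for Mycl and c-Myc against no dox; each point is a gene, red called higher, blue called lower, white not called, and the black bar is the list's median. The medians of the 10 genes are at 0.31 in both panels (0.70 for Mycl and 0.36 for c-Myc without Mycl replicate 1), and the red point at the far right of the c-Myc panel in the degradation list is Derl3 at 3.24.

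Genes of protein entry and export were read next. Of 24 translocon and N-glycosylation genes, 0 passed in the main edgeR test in any of the 3 comparisons. In the edgeR fit of 6 for c-Myc, Srp68, Ssr1, Rpn1 and Ostc were higher and Sec62 and Sec63 lower. There 18.8% of all genes were higher and 14.4% lower. Without Mycl replicate 1 Ddost was higher in Mycl livers (edgeR adjusted p = 0.0281, 3.68% of all genes higher). In that fit it was lower in c-Myc than in Mycl livers (edgeR adjusted p = 0.0384, 3.73% of all genes lower). DESeq2 called 3 higher in Mycl livers, where 5.88% of all genes were higher. It called 2 lower in c-Myc than in Mycl livers, where 5.89% of all genes were lower. With library totals 6 were higher in c-Myc livers. There 3181 of all 12651 genes were higher, so that count is near the background and is no result about the list. Of 20 COPII transport genes, 0 passed in Mycl livers in the main edgeR test, where DESeq2 called 1 higher. In c-Myc livers 1 rose and 19 did not pass in the main test. The 1 was Kdelr3, a receptor that returns chaperones to the endoplasmic reticulum, which rose by 1.82 on the log2 scale (SE 0.41, edgeR adjusted p = 0.0125) to 2.12 ± 1.12 CPM. Kdelr3 also passed for Mycl in the fit of 6 and without c-Myc replicate 2 (edgeR adjusted p = 0.0399 and 0.0324). For Mcfd2, a cargo receptor subunit, the c-Myc livers lay below the Mycl livers (log2 difference -0.75, SE 0.19, edgeR adjusted p = 0.0429). That call was lost with library totals, in the fit of 6, without no dox replicate 1, 2 or 3, without Mycl replicate 3 and without c-Myc replicate 1, 2 or 3.

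The PERK branch and the chaperones regulated by the heat shock factor HSF1 were read for comparison. Of 12 PERK, ATF4 and CHOP targets, 0 passed in Mycl livers by edgeR and 2 were higher by DESeq2, where 5.88% of all genes were higher. In c-Myc livers 2 rose, 1 fell and 9 did not pass. Asns, the asparagine synthetase, rose by 3.02 (SE 0.48, edgeR adjusted p = 0.00252), Atf3, a stress-induced factor, rose by 1.73 (SE 0.47, edgeR adjusted p = 0.0286), and Trib3, a pseudokinase, fell by 1.08 (SE 0.22, edgeR adjusted p = 0.00764) on the log2 scale. Between the induced groups, Atf3 was higher in c-Myc livers by 2.06 (SE 0.48, edgeR adjusted p = 0.0369), and Ddit4, a stress-induced inhibitor of mTORC1, was at -1.90 (SE 0.47, edgeR adjusted p = 0.0409). Ddit3, which encodes CHOP, stood at 1.16 ± 0.357 CPM in no dox, 1.98 ± 0.945 CPM in Mycl and 1.36 ± 0.331 CPM in c-Myc livers and did not pass. Of 12 HSF1-regulated chaperones, which are cytosolic or nuclear except for the mitochondrial Hspd1 and Hspe1, 0 rose and 1 fell in Mycl livers, and 5 rose, 1 fell and 6 did not pass in c-Myc livers, with Hsph1 at 1.94 (SE 0.26), Hsp90aa1 at 1.35 (SE 0.20), Hspa8 at 0.96 (SE 0.21) and a list median of 0.61. The gene that fell in both was Hspa1b, a stress-inducible HSP70 with a near-identical copy, so its count is uncertain; its call for Mycl was lost in most of the other fits, with any no dox or Mycl replicate left out among them. For Mycl, Hspa8 and Hspe1 were higher by DESeq2 (adjusted p = 0.00188 and 0.0279) and by edgeR without Mycl replicate 2 (adjusted p = 0.0214 and 0.0355). The 5 that rose in c-Myc livers were Hsph1, Hsp90aa1, Hspa8, Hsp90ab1 and the mitochondrial Hspd1, and the call of Hspa8 was lost without no dox replicate 2. Those of Hsp90ab1 and Hspd1 were lost without no dox replicate 1, 2 or 3 and without c-Myc replicate 1 or 2. The call of Atf3 for c-Myc against no dox was lost without no dox replicate 1 or 2 or c-Myc replicate 2. Hsph1 and Hsp90aa1 were also higher in c-Myc than in Mycl livers, by 1.48 (SE 0.26, edgeR adjusted p = 0.0173) and 1.22 (SE 0.20, edgeR adjusted p = 0.0157). These calls, and those of Atf3 and Ddit4 between the induced groups, were lost in the fit of 6 and without c-Myc replicate 1 or 2. Those of Atf3 and Ddit4 were lost also without no dox replicate 2 and without Mycl replicate 1, 2 or 3.

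The genes whose pattern over the 9 livers was most like the mean of the 10 were named by Pearson correlation of log2 CPM among 6316 candidates, as a description without a test. Pdia3, a disulfide isomerase that works with calreticulin, was the closest at 0.952. Then came Serpina3n (0.918), Sall1 (0.915), Itih4 (0.909), Pdia6 (0.898), Dnajb11 (0.885), Dnajc3 (0.876) and Arntl (0.856). Pdia3, Pdia6, Dnajb11 and Dnajc3 are folding factors of the endoplasmic reticulum from the list above. Pdia3 stood at 456, 472 and 508 CPM in no dox, at 444, 692 and 767 CPM in Mycl and at 649, 580 and 584 CPM in c-Myc livers, again with Mycl replicate 1 the lowest of the 9. None of the 8 passed in the main edgeR test in a comparison with no dox (edgeR adjusted p from 0.0609 to 0.826). Without Mycl replicate 1, Pdia3, Pdia6 and Dnajb11 passed for Mycl (edgeR adjusted p = 0.0281, 0.0359 and 0.0344), where 3.68% of all genes were higher. The 9 points share the 3 groups and the library that stood apart.

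Markers of other liver cells are given because bulk RNA cannot tell more cells of a type from more RNA per cell. The 12 stellate cell and fibroblast markers, cells that secrete matrix, summed to 831 to 998 CPM in no dox livers, to 797, 1523 and 1344 CPM in Mycl replicates 1, 2 and 3 and to 1208, 2374 and 1328 CPM in c-Myc replicates 1, 2 and 3. Mycl replicate 1 was thus low and replicates 2 and 3 high in these markers as in the chaperones, whose 5 genes summed to 2224, 5025 and 5528 CPM there. In c-Myc livers the order differed, with the chaperone sum at 5469, 4231 and 4127 CPM. Of the 12 markers, 1 rose in Mycl livers, and 4 rose and 1 fell in c-Myc livers; Col1a1, a collagen chain, stood at 45.8, 61.5 and 84.8 CPM in no dox, 92.3, 297 and 242 CPM in Mycl and 294, 793 and 284 CPM in c-Myc livers. The part of these cells in the values of the 10 genes was not tested.

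**Figure D5:**
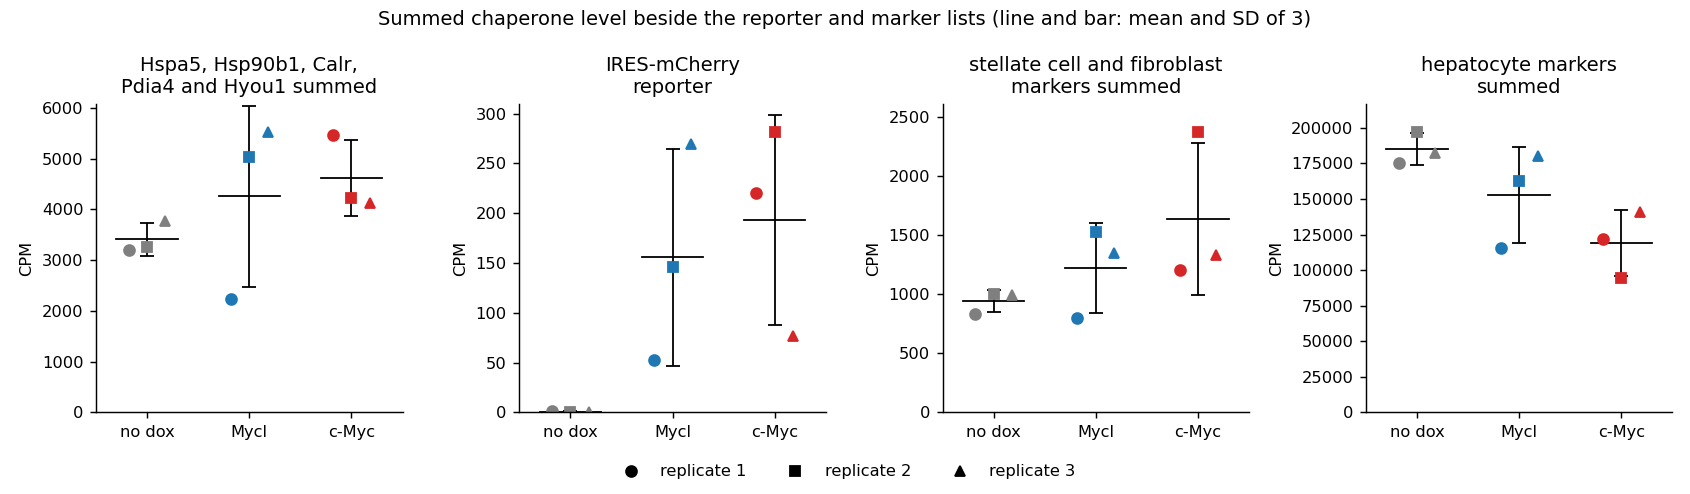
Summed CPM of the 5 chaperones, CPM of the IRES-mCherry reporter, and summed CPM of 12 stellate cell and fibroblast markers and of 12 hepatocyte markers in each liver (linear axes from 0; symbols mark replicates, lines and bars the mean and SD). Mycl replicate 1 is low in the first 3 panels relative to Mycl replicates 2 and 3, and the chaperone sum of c-Myc replicate 2, at 4231 CPM, is below that of c-Myc replicate 1 although its reporter and fibroblast markers are higher.

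For other cell types with a strong secretory pathway, some markers were at or near 0, while the summed levels were not. Of 10 B and plasma cell markers in the table, Tnfrsf17 had no counts in any library and Jchain was at most 1.01 CPM; the sum of 149 to 300 CPM over all livers was mostly Sdc1, which hepatocytes express. Of 15 pancreatic acinar markers, Prss1 and Amy2a5 had no counts, and the sum was 29.1 to 75.0 CPM in no dox, 29.4 to 89.4 in Mycl and 7.57 to 34.6 in c-Myc livers, of which Cela1 made up 5.797 to 67.67 CPM. It was highest in Mycl replicate 1, where the chaperones were lowest. The 12 neutrophil and monocyte markers summed to 8.92 to 11.5 CPM in no dox, 25.3 to 33.9 in Mycl and 18.6 to 31.7 in c-Myc livers, with Ly6g at 0 in 7 libraries. The 12 Kupffer cell and macrophage markers summed to 472 to 554 CPM in no dox, 511 to 659 in Mycl and 300 to 425 in c-Myc livers. Erythroid markers summed to 232 to 306 CPM in no dox, 156 to 546 in Mycl and 53.3 to 107 in c-Myc livers, the highest being Mycl replicate 1. Sinusoidal and vascular endothelial markers summed to 575 to 737, 375 to 642 and 424 to 539 CPM, cholangiocyte markers to 71.9 to 77.1, 56.8 to 97.9 and 49.9 to 83.3 CPM, and T and NK cell markers to 4.82 to 8.03, 4.07 to 7.68 and 2.19 to 4.13 CPM in the same order of groups. The part of these cells in the results was not tested.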

How the data were processed

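The authors deposited 1 table of raw counts, as whole numbers for each gene and library. Column-purified RNA went into a directional library kit, per the labels' protocols. HTSeq 0.11.2, STAR 2.7.8a, DESeq2 1.30.0 and cutadapt 3.0 are listed in the submitters' processing notes, as is build mm10. Whether counting used strand is not given in the sources used here. Symbols were found for 21588 of 21702 Ensembl identifiers. Exon lengths came from GENCODE M21 (GRCm38).

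Counts were tested in R 4.3.3 with edgeR 4.0.16 (filterByExpr with a minimum count of 10, TMM, glmQLFit and glmQLFTest on all 9 libraries, group only). P-values were adjusted by Benjamini-Hochberg over 12651 genes, and an adjusted p under 0.05 was called. Log2 CPM used a prior count of 2. The procedure was tested on simulated counts. Alternatives used other scalings and filters, DESeq2 1.42.0, limma 3.58.1 voom, fewer libraries and a replicate block. Removal of the length trend was added after seeing the data. The 10 genes and the lists were chosen with earlier results of these data known. Named are all 10 genes and, per list and comparison, up to 4 called genes with the smallest adjusted p; further genes of a list were named after their values were seen. Pairs of replicates differed by more than sampling noise.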

Additional observations from a re-analysis of the deposited data

Results flagged for a closer look

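Herpud1 differed between the induced groups: the log2 fold change of c-Myc against Mycl was -0.81 (SE 0.18, edgeR adjusted p = 0.0321), and it was lower in 3 of 3 c-Myc livers than in any Mycl liver. The call was lost in the fit of the 6 libraries (edgeR adjusted p = 0.122). It was also lost in most fits with 1 library left out (edgeR adjusted p where lost from 0.0523 to 0.109). Against the shared no dox livers Herpud1 was at -0.77 for c-Myc and 0.04 for Mycl.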

How the results depend on the processing

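Of the 10 genes, 0, 2 and 1 were called for Mycl against no dox, c-Myc against no dox and c-Myc against Mycl, and 405, 2614 and 857 of all genes. For Mycl, 2 of the 10 were called by DESeq2 and 1 with RLE size factors, upper-quartile factors, library totals or no filter on low counts; for c-Myc, 5 in a fit of the 6 libraries and 4 with the length trend removed; for c-Myc against Mycl, 2 by DESeq2 and 0 in the fit of 6. Leaving out 1 library gave 0 to 2, 1 to 5 and 0 to 1. For Mycl, DESeq2 called 5.88% of all genes higher, and RLE, upper-quartile factors and library totals called 310, 372 and 341 of 12651 genes higher. The fit of 6 for c-Myc called 18.8% higher and 14.4% lower, and DESeq2 for c-Myc against Mycl called 5.89% lower. No such share is given here with no filter or with the length trend removed, so those counts stand without a background. Over all genes, DESeq2 called 1086 for Mycl and 1743 for c-Myc against Mycl, limma-voom 200 for Mycl, the fit of 6 libraries 4109 for c-Myc and 74 for c-Myc against Mycl, and library totals 1679 for the latter; leaving out 1 library gave 26 (without no dox replicate 1) to 717 (without Mycl replicate 2), 1197 (without c-Myc replicate 2) to 4246 (without Mycl replicate 1) and 67 (without c-Myc replicate 1) to 1551 (without c-Myc replicate 3). The cause was not tested. Higher calls made up 69.9%, 57.0% and 61.1%, and with library totals 83.2%, 90.4% and 86.7%; upper-quartile factors gave 82.7% for Mycl. Library totals moved the median of all genes by 0.13, 0.36 and 0.23.

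Signs changed only for genes that were not called. For c-Myc against no dox, Xbp1 turned to 0.041 with RLE size factors, 0.056 with upper-quartile factors, 0.34 with library totals, 0.0052 with no filter, 0.012 with the stricter filter, 0.041 by DESeq2, 0.047 in the fit of 6 and 0.026 with the length trend removed, and ran from -0.15 to 0.18 with 1 library left out. Herpud1 for Mycl was -0.013 with the length trend removed. For c-Myc against Mycl, library totals gave 0.20 for Hsp90b1, 0.094 for Calr, 0.18 for Pdia4 and 0.11 for Xbp1, limma-voom 0.16 for Hsp90b1 and 0.084 for Pdia4, the replicate block 0.076 for Hsp90b1 and 0.018 for Pdia4, and removal of the length trend 0.0021 for Pdia4. With 1 library left out the ranges were -0.13 to 0.47 for Hyou1, -0.42 to 0.29 for Hsp90b1, -0.38 to 0.24 for Pdia4, -0.38 to 0.014 for Calr and -0.25 to 0.045 for Xbp1.

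Same-numbered replicates did not consistently deviate together: their correlations ran from -0.19 to 0.31, and those of other pairs from -0.27 to 0.19. The highest, 0.31, was between replicate 1 of no dox and of Mycl. The numbers are not taken as pairs. With the replicate block 0, 2 and 1 of the 10 genes and 297, 2361 and 689 of all genes were called, and no call of the 10 genes changed. The lowest member counts were those of Creld2, at 270 to 426 in the no dox libraries.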
